A study of Mus musculus with 30 samples.

Results

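Ovaries of adult female CD1 mice, an outbred stock, were compared at 2 times after a 10-day course of di(2-ethylhexyl) phthalate (DEHP), a plasticizer, at 200 ug/kg/day. In 3 libraries the ovaries were collected as dosing ended (0 months), and in 3 libraries they were collected 3 months later. These 6 of the 30 libraries of the series were chosen by their titles. The other 24 libraries form pairs of 0- and 3-month groups, again 3 libraries each, given for the same 10 days either vehicle, the lower DEHP dose (20 ug/kg/day), or another plasticizer, diisononyl phthalate (DiNP), whose doses were 20 and 100 ug/kg/day. Messenger RNA of whole ovaries was sequenced, and the deposited values are log2 CPM, the base 2 logarithm of a gene's counts scaled to a common library size, for 18022 genes. The mice of the later groups were also 3 months further from dosing in age, so time since DEHP and age cannot be told apart within the DEHP groups. The vehicle groups, which carry the same interval, are therefore given beside them. The labels do not say that replicates came from separate mice, so the p-values reflect the spread among libraries only. That spread was wide in some genes. At 0 months with DEHP 200 the globin gene Hbb-bs was -2.42, -2.25 and 4.23 log2 CPM, and H2-Eb1 was 4.05, 4.85 and 0.36. The source of the spread was not tested.

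The adult ovary holds oocytes inside follicles, the granulosa and theca cells that surround them, and corpora lutea, which form from ovulated follicles. Granulosa cells convert androgens from theca cells to estradiol and secrete inhibins and activins. Corpora lutea take up and make cholesterol and turn it into progesterone, and they form and regress with each cycle. The stock of resting oocytes is set around birth and declines with age.

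Genes of the labelled tissue were measured. All 30 oocyte genes, 24 granulosa genes and 22 corpus luteum genes of the lists used here passed a filter of mean log2 CPM above 0, while 2 of 8 exocrine pancreas genes and 1 of 8 skeletal muscle genes did. Depth, approximated from the smallest steps between low values, in units of 1e+06 reads ran from 24.5 to 42.3 in the 6 libraries.

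The 0-month libraries differed from each other more than the 3-month libraries did. The median SD of a gene within the group was 0.28 log2 CPM at 0 months and 0.19 at 3 months, against 0.16 and 0.20 with vehicle. A pair of 0-month libraries stood far apart on the first principal component, which held 28.1% of the variance of all 30 libraries: replicate 2 scored 30.57 and replicate 3 scored -58.51. The 0-month replicate 1 correlated best with 3-month replicate 2 (r = 0.979) and 0-month replicate 2 with 3-month replicate 3 (r = 0.970), across genes. The 6 libraries therefore did not separate by time as a whole.

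Luteal genes differed among the 0-month libraries. The mean of the 22 corpus luteum genes was 7.53, 8.71 and 5.34 log2 CPM in the 0-month libraries, and 8.64, 7.47 and 8.54 in the 3-month libraries. Sfrp4, a secreted Wnt-binding protein of luteal cells, was 9.15, 10.84 and 2.40 log2 CPM at 0 months and 12.26, 10.33 and 11.57 at 3 months. The prostaglandin F receptor gene Ptgfr was 8.82, 10.64 and 2.01 at 0 months and 10.68, 8.61 and 10.79 at 3 months. Akr1c18, which encodes the enzyme that inactivates progesterone, ranged from -0.55 in 0-month replicate 3 to 11.85 in 0-month replicate 2. In 0-month replicate 3 these 3 luteal genes were far lower than in the other 5 libraries. Whether a library holds fewer cells of a type or less RNA per cell cannot be told apart in whole ovary.

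**Figure D1:**
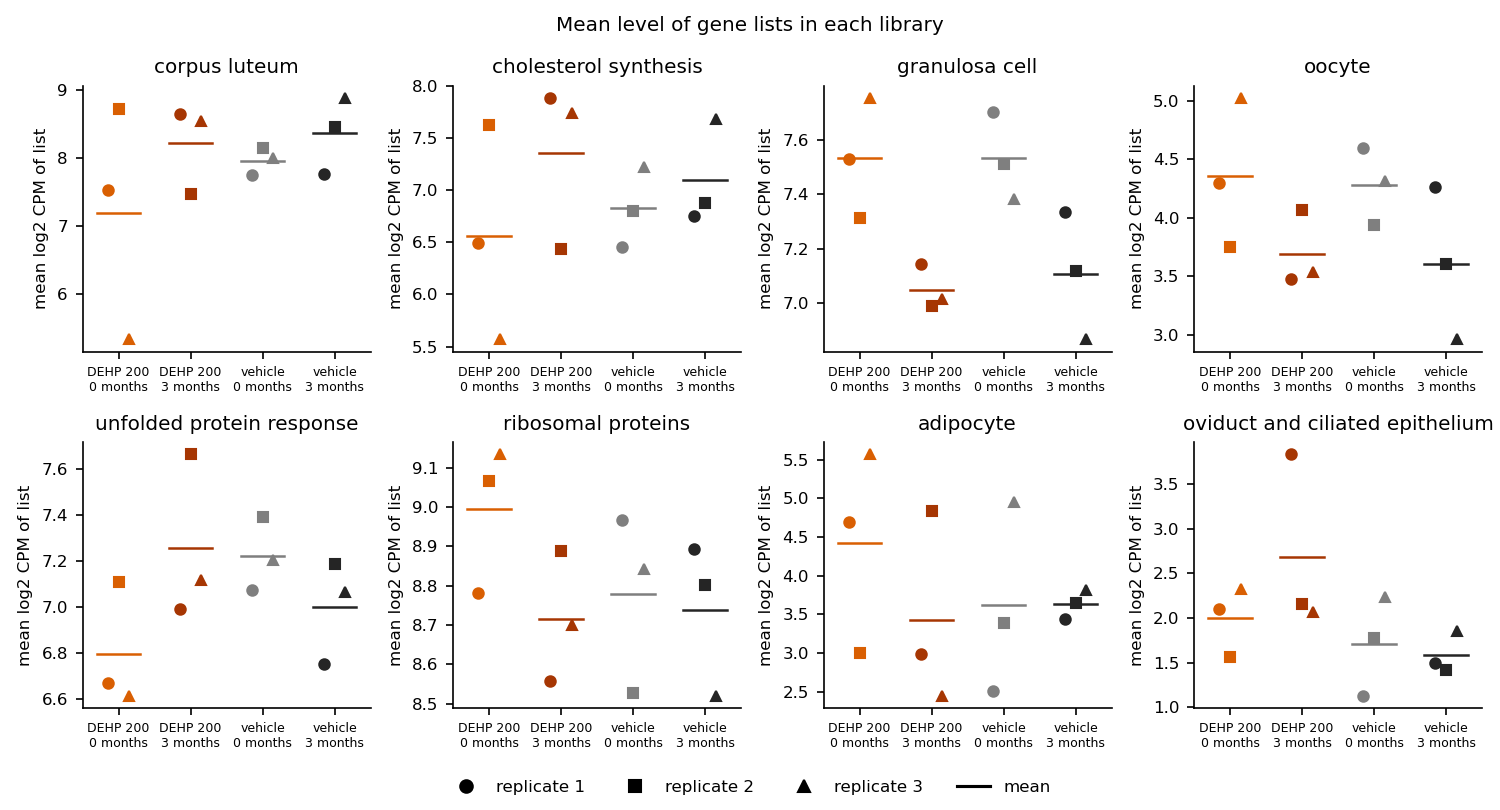
Mean log2 CPM of the tested members of 8 gene lists in each library (points, one shape per replicate number) with the mean of 3 libraries (lines), for DEHP 200 and vehicle at 0 and 3 months. The corpus luteum list reads 5.34 to 8.71 across the 0-month DEHP 200 libraries, a wider range than the 7.47 to 8.64 at 3 months. In the granulosa cell panel the DEHP 200 libraries of the 2 times do not overlap.

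Across all genes, 2 of 14740 differed between 3 and 0 months (0.0136%), 1 higher (0.00678%) and 1 lower (0.00678%). The test was limma's moderated test on all 30 libraries with Benjamini-Hochberg adjustment, called at adjusted p under 0.05. At an unadjusted p under 0.05 there were 1726 genes (11.7%), of which 1021 were higher (6.93%) and 705 lower (4.78%). Quantile normalization turned that split to 720 higher and 946 lower, or from 59.2% to 43.2% higher. In 939 genes (6.37%) every 3-month library was above every 0-month library, and in 918 (6.23%) every one was below.

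Ltbp2, which encodes a secreted protein that binds elastic microfibrils of the extracellular matrix, rose. It lies at chr12:84783212-84876558 (GRCm38.p6). Its level was 3.82, 3.12 and 3.15 log2 CPM at 0 months and 5.26, 5.17 and 5.32 at 3 months. The 3-month libraries lay close together, and all were more than 1 log2 unit above the highest 0-month library. The change was 1.88 ± 0.27 on the log2 scale (SE, n = 3 libraries a group, limma adjusted p = 0.00828). With vehicle Ltbp2 was 4.48, 4.46 and 4.20 at 0 months and 4.92, 5.46 and 5.29 at 3 months, again without overlap, with a change of 0.84 ± 0.27. The change was 1.56 with DEHP 20, 1.19 with DiNP 20 and 1.75 with DiNP 100, and passed the test in the first and last of these. The 3-month levels with DEHP 200 and vehicle lay in one range, and the 0-month levels with DEHP 200 were below those with vehicle. The change with DEHP 200 exceeded that with vehicle by 1.04 ± 0.39 (limma adjusted p = 1).

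Casq2, which encodes the calcium-binding protein calsequestrin 2 of the sarcoplasmic reticulum, fell. It lies at chr3:102086415-102146514. Its level was 3.14, 2.53 and 2.93 log2 CPM at 0 months and 1.76, 1.36 and 1.06 at 3 months. The groups did not overlap. The change was -1.48 ± 0.25 (SE, limma adjusted p = 0.0306). With vehicle the change was -0.76, and it was -0.71 with DEHP 20, -0.60 with DiNP 20 and -1.32 with DiNP 100, where the gene also passed. Its values were lower at 3 months in all 5 treatments.

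Both calls rested on few libraries. Neither gene passed without 0-month replicate 3, 3-month replicate 2 or 3-month replicate 3, and Casq2 did not pass without 0-month replicate 1, although the size of each change stayed between 1.76 and 2.11 for Ltbp2 and between -1.66 and -1.31 for Casq2 when 1 library was left out.

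**Figure D2:**
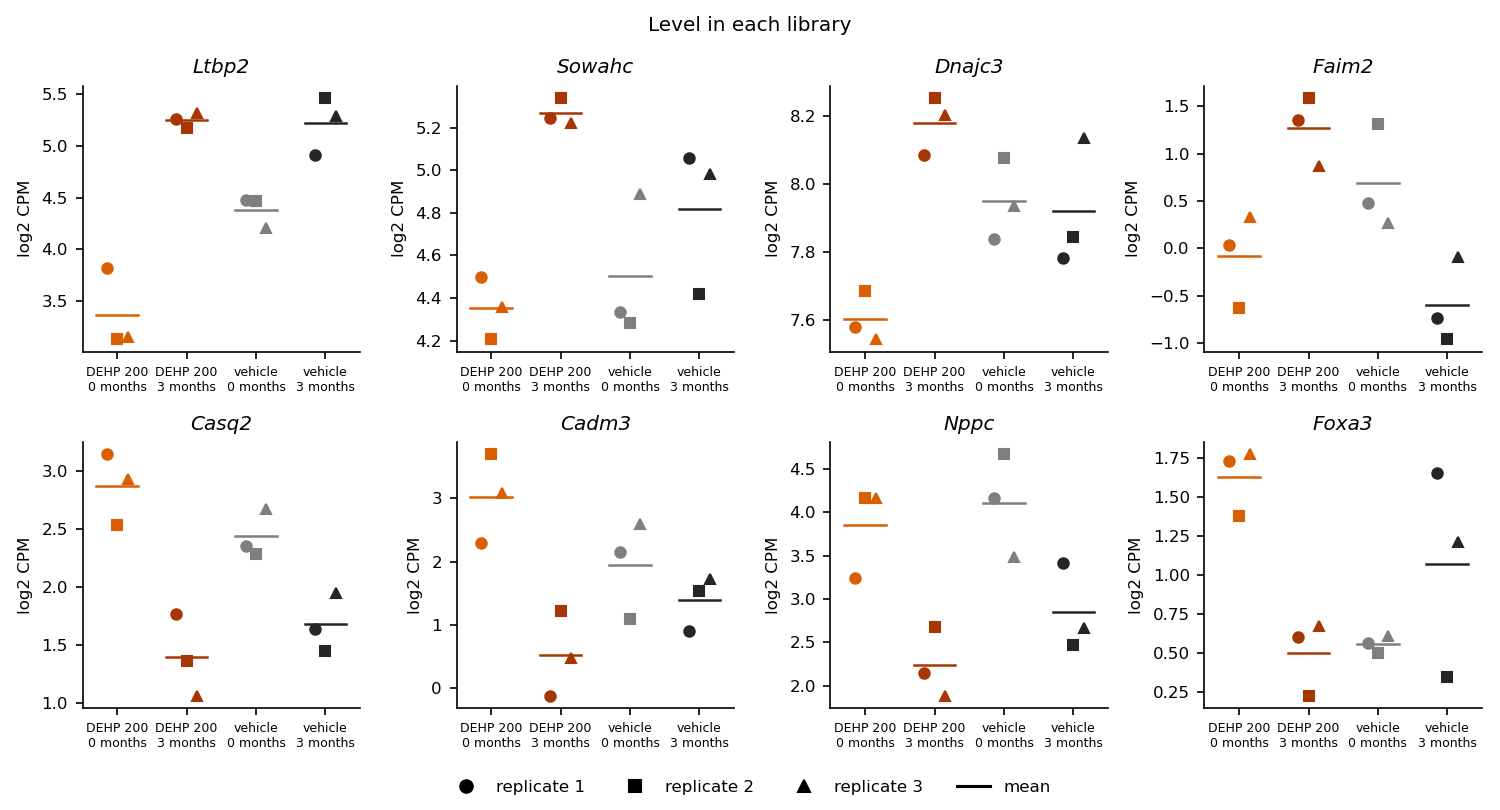
Level of 8 genes in log2 CPM in each DEHP 200 and vehicle library at 0 and 3 months; points are libraries, one shape per replicate number, and lines are means of 3. In Ltbp2 and Casq2, the 2 genes that passed, the DEHP 200 groups do not overlap, and the vehicle groups are ordered the same way.

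The next genes by p-value did not pass but had groups without overlap. Their adjusted p-values ran from 0.115 to 0.224 in limma. Among those with higher values at 3 months was Dnajc3, a co-chaperone of the endoplasmic reticulum. It was 7.58, 7.69 and 7.54 log2 CPM at 0 months and 8.08, 8.25 and 8.20 at 3 months, a difference of 0.58 ± 0.12. With vehicle its difference was -0.03. Spcs3, a subunit of the signal peptidase that trims proteins entering the same organelle, was 6.74, 6.80 and 6.82 at 0 months and 7.06, 7.13 and 7.09 at 3 months. Both genes serve the entry and folding of secreted proteins. Sowahc, an ankyrin repeat gene, was 4.50, 4.20 and 4.36 at 0 months and 5.24, 5.34 and 5.22 at 3 months (0.91 ± 0.17).

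Dsp, which encodes desmoplakin, an anchor of desmosomes, was 6.69, 6.10 and 6.50 at 0 months and 7.64, 7.06 and 7.77 at 3 months. Abhd2, which encodes a lipid hydrolase, differed by 1.85 ± 0.42, and by 1.24 without 0-month replicate 3, where it stood at 4.65 against 6.43 and 6.50 in the other 0-month libraries. Nfkb1, a subunit of the NF-kappaB transcription factor, differed by 0.40. The tyrosine kinase gene Fer differed by 0.42 and Naf1, an assembly factor of nucleolar ribonucleoproteins, by 0.57. The adaptor gene Skap2 (0.45), the lactonase gene Pon3 (0.54) and BC005537 (0.57) completed the 12 of smallest p. Skap2 and Pon3 had differences of about the same size with vehicle, 0.57 and 0.57.

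Among the genes with lower values at 3 months were Nppc and Sohlh1. Nppc encodes C-type natriuretic peptide, with which granulosa cells hold the oocyte in meiotic arrest. It was 3.24, 4.16 and 4.17 log2 CPM at 0 months and 2.15, 2.68 and 1.88 at 3 months, a difference of -1.62 ± 0.37 (vehicle -1.26). Sohlh1, a transcription factor of oocytes in resting follicles, was 1.43, 1.62 and 2.38 at 0 months and -1.15, 0.45 and 0.68 at 3 months, a difference of -1.82 ± 0.40 (vehicle -1.64). Neither gene's groups overlapped, and vehicle showed differences in the same direction.

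Cadm3, a cell adhesion gene, had a larger difference with DEHP 200 than with vehicle. It was 2.29, 3.70 and 3.08 at 0 months and -0.11, 1.22 and 0.48 at 3 months (-2.50 ± 0.53), against -0.56 with vehicle. Mgat4c, of a family of glycosyltransferases, was 4.46, 5.0 and 5.30 at 0 months and 2.70, 2.77 and 1.69 at 3 months (-2.53 ± 0.60), against -1.24 with vehicle. Neither difference from vehicle passed. The genes 1700066C05Rik (-1.70), Angptl6 (-1.06), Bzw2 (-0.92), the complement protease gene Masp1 (-1.26), the DNA repair gene Aplf (-0.50) and Prpsap1 (-0.35), whose product binds an enzyme of nucleotide synthesis, also had lower values at 3 months without overlap. Prpsap1 had narrow groups, 6.33 to 6.39 at 0 months and 6.0 to 6.03 at 3 months.

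Differences over time with DEHP 200 and with vehicle had the same sign in most genes. With vehicle 1 gene passed (0.00678%), with DEHP 20 and DiNP 20 3 each (0.0204% and 0.0204%) and with DiNP 100 7 (0.0475%). Across 14740 genes, which are not independent replicates, the Pearson correlation of the DEHP 200 change was 0.46 with the vehicle change, 0.43 with DEHP 20, 0.43 with DiNP 20 and 0.31 with DiNP 100; none of these comparisons shares a library with the DEHP 200 groups. Of the 428 genes with an unadjusted p under 0.01 with DEHP 200, 377 (88.1%) had the same sign with vehicle, against 65.5% of all genes.

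**Figure D3:**
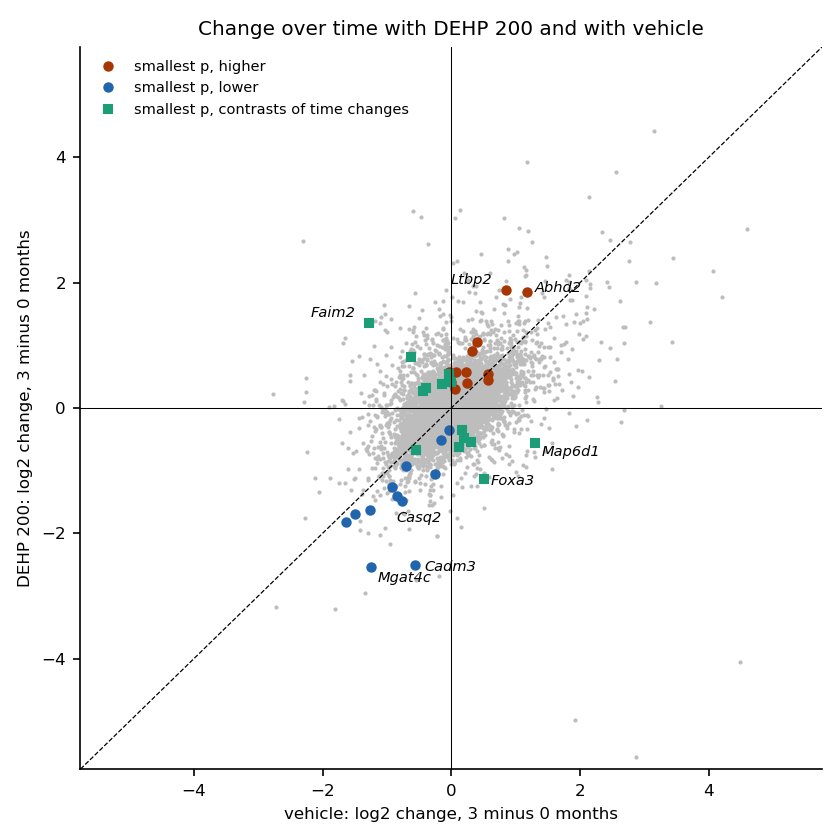
Log2 change from 0 to 3 months with vehicle (x axis) against that with DEHP 200 (y axis) for 14740 genes (grey), with the genes of smallest p marked; the dashed line marks equal change. Most marked genes of the time comparison lie in the quadrants of equal sign, and Faim2, Foxa3 and Map6d1 lie in those of opposite sign.

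Whether the change over time differed from that with vehicle was tested directly. No gene passed, and 375 genes (2.54%) had an unadjusted p under 0.05, of which 231 were higher (1.57%) and 144 lower (0.977%). Against the mean change of the other 4 treatments no gene passed either, and 1003 (6.8%) had an unadjusted p under 0.05 in limma.

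Foxa3, which encodes a forkhead transcription factor, came nearest. It was 1.73, 1.38 and 1.77 log2 CPM at 0 months and 0.60, 0.22 and 0.67 at 3 months with DEHP 200, without overlap. With vehicle it was 0.56, 0.50 and 0.61 at 0 months and 1.65, 0.34 and 1.21 at 3 months, so that its 0-month level was higher with DEHP 200 than in any vehicle library of that time. Its change was -1.13 with DEHP 200 and 0.51, 0.53, 0.63 and 0.81 with vehicle, DEHP 20, DiNP 20 and DiNP 100, a difference from their mean of -1.75 ± 0.31 (limma adjusted p = 0.135). The adjusted p ran from 0.00896 to 0.856 over 38 alternatives and was under 0.05 in 3 of them, among them the fit without 3-month vehicle replicate 2 (0.00896).

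Faim2, an inhibitor of Fas-mediated cell death, had higher values at 3 months with DEHP 200. It was 0.04, -0.62 and 0.33 at 0 months and 1.36, 1.59 and 0.87 at 3 months with DEHP 200, and 0.48, 1.31 and 0.27 and then -0.73, -0.96 and -0.09 with vehicle. The groups did not overlap in either treatment and were ordered oppositely, and the difference between the changes was 2.63 ± 0.62 (limma adjusted p = 1). Slc12a2, the sodium-potassium-chloride cotransporter gene, was 6.80, 5.57 and 5.98 at 0 months and 6.81, 7.22 and 6.75 at 3 months, a difference of 0.81 against -0.63 with vehicle. Here 0-month replicate 1 lay within the range of the 3-month libraries. Map6d1, of the microtubule-stabilizing MAP6 family, differed by -0.57 against 1.31 with vehicle, and Atoh8, a transcription factor, by -0.54 against 0.30. The other genes named by this rule, Megf6, Agap1, Tmf1 and Snx29 with higher and Gstz1, Bcl2l12, Pgf and Phyhd1 with lower values, had differences of 0.88 or less in size from the contrast that named them.

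Genes of the unfolded protein response mostly had higher values at 3 months with DEHP 200 and lower values with vehicle, and higher values with DiNP 20 as well. When unfolded proteins build up in the endoplasmic reticulum, the sensors IRE1, PERK and ATF6 raise the transcription of chaperones and of factors that remove misfolded proteins. Of 25 genes, 24 had a positive difference over time with DEHP 200 and 4 with vehicle, and the medians were 0.39 and -0.16, beside 0.00 for all genes in both. The median was 0.38 with DiNP 20, close to that with DEHP 200, 0.17 with DEHP 20 and 0.04 with DiNP 100. None passed. In 7 of 25 every 3-month library was above every 0-month library, against 6.37% of all genes, and 8 were higher at an unadjusted p under 0.05, where the share of all genes was 6.93%. The list's mean was 6.67, 7.11 and 6.61 log2 CPM at 0 months and 6.99, 7.67 and 7.12 at 3 months, so that one 0-month library lay within the 3-month range. At 0 months the list's mean was lower than with vehicle (6.80 ± 0.27 against 7.22 ± 0.16, SD, n = 3), and at 3 months it was higher (7.26 ± 0.36 against 7.0 ± 0.23).

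The chaperones of the lumen were the most abundant members. Hspa5, the BiP chaperone that holds the sensors inactive, was 10.11, 10.53 and 10.16 at 0 months and 10.26, 11.17 and 10.54 at 3 months with DEHP 200. With vehicle it was 10.81, 10.89 and 10.84 at 0 months and 10.24, 10.58 and 10.05 at 3 months. The DEHP 200 groups overlapped and the vehicle groups did not, with vehicle lower at 3 months. The difference of Hspa5 was 0.39 with DEHP 200 and 0.50 with DiNP 20. Hsp90b1, the GRP94 chaperone, differed by 0.41 with DEHP 200 and -0.79 with vehicle. The disulfide isomerase gene Pdia4 was 8.0, 8.06 and 7.95 at 0 months and 8.39, 9.29 and 9.06 at 3 months, a difference of 0.91 ± 0.36 against -0.76 with vehicle. Its 0-month libraries lay close together and all below the 3-month ones. Canx, the membrane chaperone calnexin, was 9.17, 9.17 and 8.91 at 0 months and 9.38, 9.53 and 9.49 at 3 months, and its change exceeded that with vehicle by 0.53 ± 0.13 (limma adjusted p = 1).

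Other members degrade misfolded proteins or regulate the response. Edem1, a lectin that sends misfolded glycoproteins to degradation, was 6.37, 6.80 and 6.33 at 0 months and 7.31, 7.14 and 7.19 at 3 months. Sel1l, a subunit of the degradation complex, differed by 0.28 and the co-chaperone gene Dnajb9 by 0.47, each without overlap. The sensor gene Atf6 was 6.53, 6.66 and 6.18 at 0 months and 7.02, 6.85 and 7.0 at 3 months. Atf4, the transcription factor downstream of PERK, was the 1 member with a negative value (-0.10), and Xbp1, whose messenger IRE1 splices, differed by 0.13. Chac1, which degrades glutathione, had the largest difference of the list, with 0.76, 2.86 and -0.40 at 0 months and 3.52, 3.13 and 2.67 at 3 months (2.03 ± 0.85, vehicle 0.86). Its groups overlapped. The differences were small in chaperone genes too, at 0.15 in Pdia6 and 0.24 in Calr.

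Against the vehicle change, 13 of the 25 genes had an unadjusted p under 0.05 in limma, against 2.54% of all genes, and none an adjusted one. That count was 15 of 25 without 0-month replicate 2, 9 without 0-month replicate 3 and 7 without 3-month replicate 2, the library with the highest list mean, and it ran from 7 to 15 over 15 alternatives, in which the share of all genes ran from 0.97% to 5.52%. The median of the list without that 3-month library was 0.12.

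**Figure D4:**
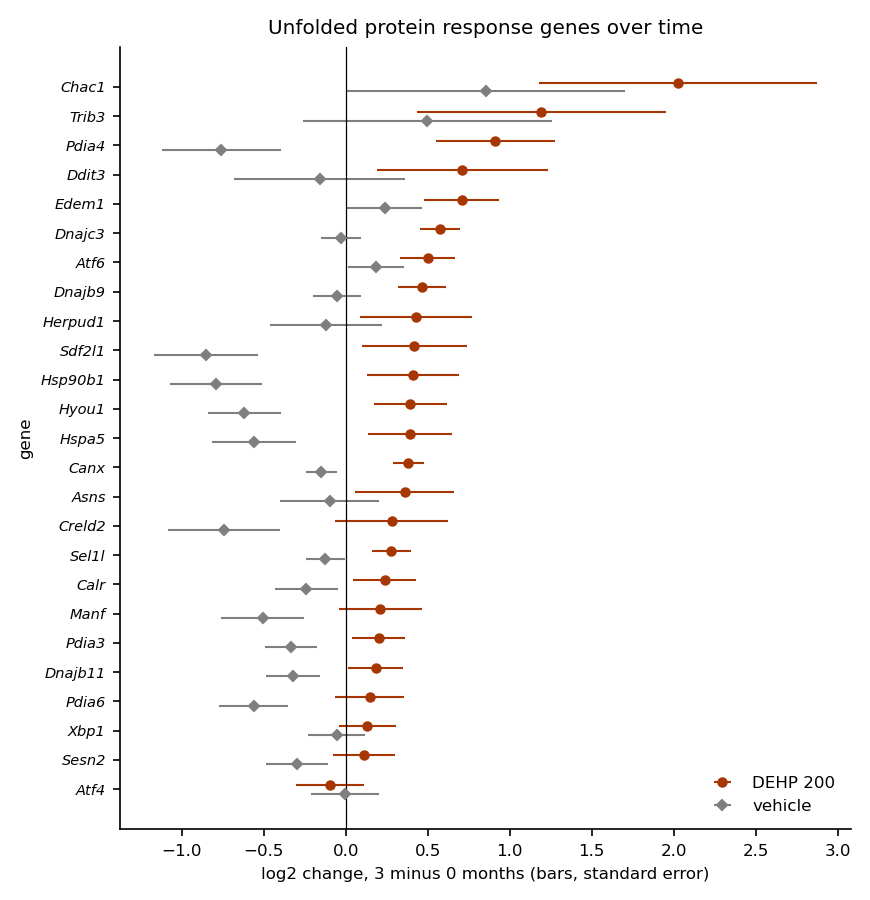
Log2 change from 0 to 3 months of the 25 unfolded protein response genes with DEHP 200 (circles) and vehicle (diamonds); bars are standard errors from limma. With DEHP 200, 24 genes lie to the right of 0, and with vehicle 21 lie to the left.

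Several of these genes share a promoter element, the ER stress response element, to which NF-Y and ATF6 are known to bind. It was searched as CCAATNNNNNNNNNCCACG, on both strands, in the 250 bases before each gene's start in RefSeq promoters of GRCm38.p6. It was found in 37 of 32851 promoters (0.113%), which belong to 35 of 27025 genes, and in 7 of the 22 list genes with a promoter in the table. The list and the element were both chosen as known parts of this response, so these shares are not a test. The 8 matches are shown so that the shared ends and the free spacer of 9 bases can be compared. Each is printed 5′ to 3′ on the gene's strand with 15 further bases on either side in lower case, and capitals mark the element, which reads CCAAT first where it lies on the gene's strand and CGTGG first where it lies opposite.
Hspa5 (chr2:34772010-34772058, plus strand): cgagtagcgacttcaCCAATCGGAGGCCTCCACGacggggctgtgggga
Dnajc3 (chr14:118937812-118937860, plus strand): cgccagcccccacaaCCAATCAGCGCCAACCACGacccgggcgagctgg
Canx (chr11:50325785-50325833, minus strand): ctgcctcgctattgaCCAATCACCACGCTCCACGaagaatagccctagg
Pdia6 (chr12:17266476-17266524, plus strand): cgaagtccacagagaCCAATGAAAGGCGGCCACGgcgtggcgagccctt
Hsp90b1 (chr10:86705518-86705566, minus strand): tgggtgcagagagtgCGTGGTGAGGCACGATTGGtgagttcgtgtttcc
Hsp90b1 (chr10:86705623-86705671, minus strand): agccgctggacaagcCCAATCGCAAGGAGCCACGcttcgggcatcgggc
Calr (chr8:84847060-84847108, minus strand): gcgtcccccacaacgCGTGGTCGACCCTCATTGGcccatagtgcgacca
Creld2 (chr15:88819505-88819553, plus strand): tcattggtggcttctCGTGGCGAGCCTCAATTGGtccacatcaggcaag
In Dnajc3 and Canx every 3-month DEHP 200 library was above every 0-month one, as in 7 of the 25 list genes and 6.37% of all genes. In Hspa5, Hsp90b1, Calr, Pdia6 and Creld2 the groups overlapped. Genes with the element on the gene's strand were in both sets. A match describes the letters of the promoter and not binding.

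Genes of follicles had lower values at 3 months with DEHP 200 and with vehicle. All 30 oocyte genes had negative differences in both, with medians of -0.64 and -0.68. None passed. In 3 of 30, every 3-month library was below every 0-month library, against 6.23% of all genes, and 7 were lower at an unadjusted p under 0.05, where the share of all genes was 4.78%. The list's mean was 4.30, 3.75 and 5.02 log2 CPM at 0 months and 3.48, 4.07 and 3.53 at 3 months, so that 3-month replicate 2 lay above 0-month replicate 2. Figla, the transcription factor that starts zona pellucida gene expression, was 0.45, 0.88 and 1.18 at 0 months and -0.82, -0.08 and -0.23 at 3 months. Pou5f1, the pluripotency factor OCT4, was 2.80, 2.31 and 3.49 at 0 months and 1.16, 1.89 and 1.82 at 3 months. Like Sohlh1, these did not overlap between times. Bmp15, an oocyte-secreted growth factor, had the smallest difference (-0.02), and its sign turned positive when 0-month replicate 1 or 3, or 3-month replicate 1 or 3, was left out. The list's median was -0.30 without 0-month replicate 3, with 26 of 30 negative.

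Of 24 granulosa genes 19 had negative differences, with a median of -0.43 against -0.53 with vehicle, and none passed. In 9 of 24 the 3-month libraries were all below the 0-month libraries, against 6.23% of all genes. The list's mean was 7.53, 7.31 and 7.76 log2 CPM at 0 months and 7.14, 6.99 and 7.02 at 3 months, without overlap. The inhibin and activin genes were among the 9. Inhbb, the beta B subunit shared by inhibin B and activin B, was 9.99, 9.72 and 10.76 at 0 months and 9.08, 8.50 and 9.14 at 3 months (-1.25 ± 0.37). Fst, follistatin, which binds activins, was 7.84, 7.90 and 8.47 at 0 months and 6.87, 7.53 and 6.47 at 3 months (-1.11 ± 0.30). The whole list of inhibin, activin and TGF-beta family genes had 14 positive and 12 negative differences with a median of 0.04 (vehicle -0.13), and the receptor genes Bmpr1a (0.35) and Acvr2a (0.47) had higher values at 3 months without overlap. Hsd17b1, the enzyme that makes estradiol from estrone, differed by -0.81, and Nap1l5 by -0.92. Wnt4, a secreted signal, went the other way (0.60). In vehicle the corresponding values were -0.86 for Inhbb, -0.71 for Fst, -0.59 for Hsd17b1 and 0.52 for Wnt4.

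Of 32 genes of proliferation 31 had negative differences with DEHP 200 and 32 with vehicle, with medians of -0.24 and -0.32. The thymidine kinase gene Tk1 was 3.55, 3.96 and 4.28 at 0 months and 3.27, 3.29 and 3.24 at 3 months (-0.66 ± 0.19), without overlap. Birc5, the survivin gene of dividing cells, differed by -0.65, the cell cycle transcription factor gene E2f1 by -0.48, and Mcm4, a subunit of the replicative helicase, by 0.13. Without 0-month replicate 3, in which the list's mean was highest (5.81 against 5.28 and 5.07), the median was -0.03 with 21 of 32 negative.

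Genes of corpora lutea and of cholesterol synthesis had higher means at 3 months, and the size depended on 0-month replicate 3. The corpus luteum list had 19 of 22 positive differences with a median of 0.70, against 0.29 with vehicle. Without 0-month replicate 3 the median was 0.18 with 14 of 22 positive, and without 0-month replicate 2 it was 1.39. Prlr, the prolactin receptor gene, was 9.59, 9.84 and 7.04 at 0 months and 10.77, 9.35 and 10.52 at 3 months. In 3 members, Mro, Pgf and Inhba, the 3-month libraries were all lower, against 6.23% of all genes. Mro was 5.41, 5.76 and 5.72 at 0 months and 4.66, 4.87 and 3.46 at 3 months (-1.30 ± 0.40, vehicle -0.49). Pgf, placental growth factor, was 0.95, 1.36 and 1.34 at 0 months and 0.59, 0.53 and 0.52 at 3 months.

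All 24 cholesterol synthesis genes had positive differences, with a median of 0.81 against 0.22 with vehicle, and none passed. The list's mean was 6.49, 7.63 and 5.57 log2 CPM at 0 months and 7.89, 6.44 and 7.74 at 3 months. The groups crossed: 0-month replicate 2 was near the high 3-month libraries and 3-month replicate 2 near 0-month replicate 1. Of the 24 genes 1 was higher without overlap, against 6.37% of all genes. It was Stard4, a cytosolic cholesterol carrier, at 5.92, 6.38 and 5.25 at 0 months and 7.23, 6.56 and 6.92 at 3 months (1.05 ± 0.39). Srebf2, the transcription factor that drives the pathway, was 7.58, 7.61 and 6.80 at 0 months and 7.75, 7.59 and 7.96 at 3 months. Idi1 (1.41) and Lss (1.26), enzymes of the isoprenoid and sterol steps, had larger differences, and Mvk, mevalonate kinase, the smallest (0.02). The median was 0.27 with 21 of 24 positive without 0-month replicate 3. These values moved with the corpus luteum list across the 6 libraries, and the part of luteal content in them was not tested.

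None of a panel of 16 genes of steroid synthesis, gonadotropin response and oocyte signals passed, with adjusted p-values from 0.377 to 0.992. Star, the carrier that brings cholesterol into mitochondria, was 9.37, 12.70 and 6.18 at 0 months and 12.60, 8.81 and 12.96 at 3 months (2.04 ± 1.36). Cyp11a1, the side-chain cleavage enzyme, was 12, 13.98 and 9.08 at 0 months and 13.41, 11.83 and 13.37 at 3 months (1.18 ± 0.75). It turned to -0.12 without 0-month replicate 3. Hsd3b1, which makes progesterone and has close gene copies that can share reads, differed by 0.63 ± 0.34. Each of these 3 was lowest in 0-month replicate 3, and the groups overlapped.

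The androgen-forming enzyme gene Cyp17a1 differed by -0.81 ± 1.01 and the aromatase gene Cyp19a1 by -1.11 ± 0.85, each with overlap. The gonadotropin receptor genes Fshr (-0.36) and Lhcgr (0.23) and the estrogen receptor genes Esr1 (0.46) and Esr2 (-0.39) overlapped as well. Lhcgr turned to -0.53 without 0-month replicate 3. Amh, which restrains follicle recruitment, was 7.07, 6.80 and 7.55 at 0 months and 7.42, 7.20 and 6.84 at 3 months, a difference of 0.01 ± 0.38 whose sign turned negative in 6 alternatives. Gdf9, an oocyte growth factor, differed by -0.60. Kitl, the granulosa ligand of the oocyte receptor KIT, was 6.75, 6.75 and 6.69 at 0 months and 6.88, 4.86 and 4.70 at 3 months (-1.25 ± 0.75, vehicle 0.30). Its 0-month libraries lay close together, and 3-month replicate 1 was slightly above them. Hsd17b1, Inha and Inhba were the 3 of 16 without overlap, all lower at 3 months, where the share of all genes was 6.23%. Inha, the common inhibin subunit, was 10.93, 10.99 and 11.43 at 0 months and 10.48, 10.66 and 10.45 at 3 months (-0.58 ± 0.27). Inhba, the beta A subunit, was 8.32, 7.58 and 8.77 at 0 months and 7.52, 7.18 and 7.21 at 3 months (-0.92 ± 0.42).

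Signalling genes of follicle activation showed small differences. The KIT and PI3K list had a median of 0.17 (vehicle 0.04), and 5 of 22 genes had every 3-month library above every 0-month one, against 6.37% of all genes. Pik3ca, a catalytic PI3K subunit, was 6.64, 6.64 and 6.47 at 0 months and 6.77, 6.93 and 6.74 at 3 months (0.23 ± 0.09, vehicle -0.04). Pdpk1, the kinase that activates AKT, was 6.26, 5.89 and 5.89 at 0 months and 6.51, 6.36 and 6.63 at 3 months (0.48 ± 0.16, vehicle 0.21). Neither gene's groups overlapped. The list's median was -0.0027 with both 0-month replicates 2 and 3 left out, with 11 of 22 positive.

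Among 20 hormone receptor genes 14 had positive differences (median 0.17, vehicle 0.06), and 4 were higher without overlap, against 6.37% of all genes. Thrb, thyroid hormone receptor beta, was 4.56, 4.84 and 3.92 at 0 months and 5.54 in each 3-month library (1.10 ± 0.33, vehicle 0.31). Paqr5, a membrane progestin receptor, was 1.47, 1.03 and 0.31 at 0 months and 3.05, 1.49 and 1.96 at 3 months (vehicle 1.02). The glucocorticoid receptor gene Nr3c1 differed by 0.46 (vehicle 0.22). Gper1, a membrane estrogen receptor, went the other way (-0.44). No receptor passed.

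Ribosomal protein genes had slightly lower values at 3 months. Of 32, 31 had negative differences with DEHP 200 and 28 with vehicle, with medians of -0.27 and -0.09. Rpl13a was 9.43, 9.83 and 9.78 at 0 months and 9.17, 9.37 and 9.26 at 3 months (-0.41 ± 0.16, vehicle -0.04). Reads of such genes can be shared with pseudogenes, so single values are uncertain. The list's median was -0.05 with 0-month replicates 2 and 3 left out, where 26 of 32 were negative.

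The macrophage, major histocompatibility complex and interferon response lists had positive medians with DEHP 200 and larger ones with vehicle. The lists of T and NK cells, B and plasma cells, and neutrophils and mast cells had 3 or 4 members tested each, and their medians were 0.25, 0.24 and -0.31, against -0.01, 0.85 and 0.56 with vehicle. The B and plasma cell median was the value of Derl3, beside 1.51 in Jchain and 0.17 in Cd22. The neutrophil and mast cell list held Kit, which is also in the follicle activation list. These medians therefore do not describe the immune cells alone. Of 22 macrophage genes 16 had positive differences with a median of 0.22, against 0.57 with vehicle, and 6 were higher without overlap, against 6.37% of all genes. Mrc1, the mannose receptor of resident macrophages, was 4.62, 4.74 and 3.85 at 0 months and 5.31, 5.01 and 5.11 at 3 months (0.74 ± 0.26, vehicle 0.56). Adgre1, which encodes F4/80, was 4.09, 3.45 and 2.53 at 0 months and 4.24, 4.25 and 4.43 at 3 months (0.95 ± 0.35, vehicle 0.96). The lipid-associated macrophage gene Gpnmb went the other way (-0.80). Of 20 genes of the major histocompatibility complex 17 had positive differences, with a median of 0.40 against 0.90 with vehicle. Cd74, the invariant chain of class II, was 6.80, 6.97 and 6.75 at 0 months and 7.48, 8.05 and 7.17 at 3 months. Interferon response genes had a median of 0.27 against 0.77 with vehicle. No gene of these 3 lists passed, for DEHP 200 or for its difference from vehicle.

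Markers of tissue around the ovary varied by library. Adipocyte genes had a median difference of -1.39 (vehicle 0.03), and the list's mean was 4.69, 3.00 and 5.57 at 0 months and 2.99, 4.83 and 2.45 at 3 months. Fabp4, the fatty acid carrier of fat cells, was 4.14, 2.15 and 6.06 at 0 months and 2.01, 4.67 and 1.03 at 3 months. Without 0-month replicate 3 the median was -0.28. For oviduct and ciliated epithelium the list's mean was 3.83 in 3-month replicate 1 and 1.57 to 2.32 in the other 5 libraries, and Foxj1, the regulator of cilia, was 4.91 there against -0.65 to 2.63. The median of 0.58 became 0.01 without that library. The part of such tissue in the differences above was not tested.

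**Figure D5:**
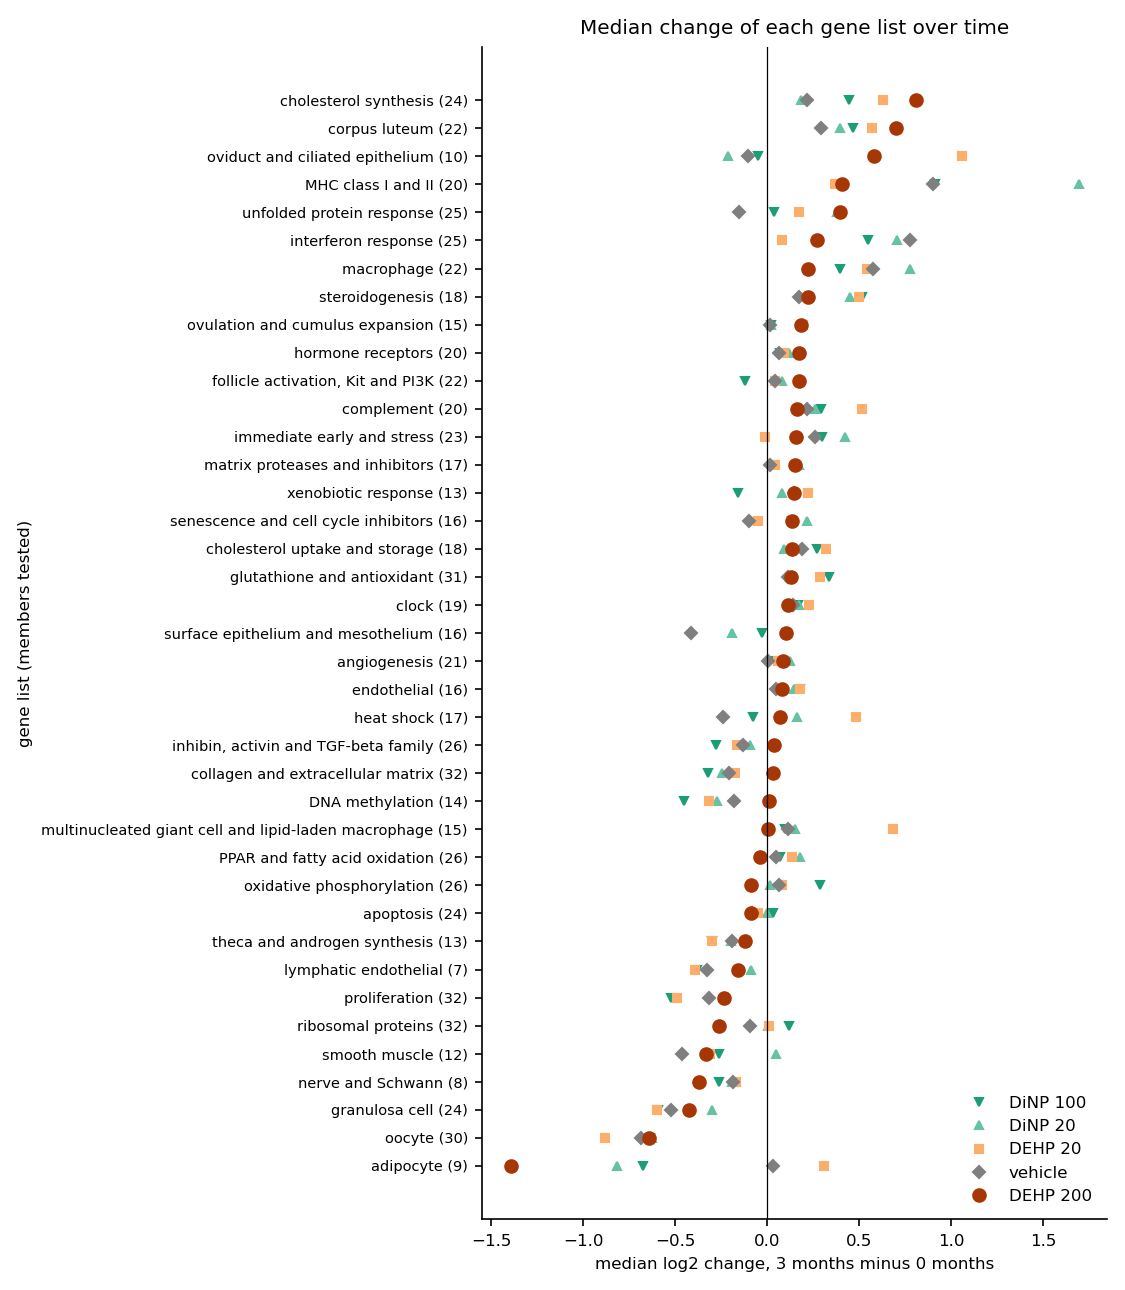
Median log2 change from 0 to 3 months of the members tested in each of 39 gene lists, for DEHP 200 (large circles), vehicle and the other 3 treatments; the number tested stands beside each name. The DEHP 200 medians run from -1.39 (adipocyte) to 0.81 (cholesterol synthesis), and the oocyte and granulosa cell lists lie to the left of 0 in all 5 treatments.

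Over the 39 lists with at least 5 members tested, 27 had a positive and 12 a negative median, and no member of any list passed. Smooth muscle genes had a median of -0.33 against -0.47 with vehicle, with Cnn1, calponin, at 5.90, 5.18 and 6.67 at 0 months and 5.19, 5.06 and 4.37 at 3 months. Collagen and matrix genes had a median of 0.03 (vehicle -0.21), oxidative phosphorylation genes -0.09 (vehicle 0.06) and apoptosis genes -0.09 (vehicle -0.09). Over 16 alternatives these 3 medians ran from -0.24 to 0.13, from -0.21 to 0.13 and from -0.14 to -0.0054. The collagen median was -0.15 with 25 of 32 negative without 0-month replicate 3. The oxidative phosphorylation median was 0.10 with 21 of 26 positive without 0-month replicate 2.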

How the data were processed

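The authors deposited 1 table of log2 CPM for 18022 genes in 30 libraries. Per the labels' protocols, libraries were stranded TruSeq mRNA from flash-frozen whole ovaries, read from one end; the submitters' processing notes name FastQC 0.11.8, Salmon 0.11.3, edgeR, R 3.5.2 and GRCm38.p6. Whole reads could not be recovered, so no count model was used.

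Genes with mean log2 CPM above 0 (14740) were fitted in limma 3.58.1 (R 4.3.3) as group means across the 30 libraries, with a trended prior, with 20 residual and 2.85 prior degrees of freedom. Adjusted p-values are Benjamini-Hochberg over all genes. The script was tested on simulated data. Named genes were the 12 of smallest p in each direction over time, the 4 in each direction for each contrast of time changes, a panel of 16, and from each of 45 lists the members of smallest p and the largest opposite one; others in the text were chosen after their values were seen. Some genes that this rule takes are not reported here. Members and lists were chosen with earlier results of these data known. Lists were described by counts and medians, without a test. Alternatives were scaling, filter, pseudocount, prior, weights, a replicate block and leaving out each library.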

Additional observations from a re-analysis of the deposited data

How the results depend on the processing

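The count of 2 genes over time was 2 under median centring, quantile normalization, no filter, a filter above 2, a pseudocount of 1 CPM, no trend in the prior and an adjusted p under 0.10. It was 1 with library weights (Casq2) and 0 from the 6 DEHP 200 libraries alone, and ran from 0 to 3 when 1 library was left out. With 0-month replicates 2 and 3 both left out, an alternative chosen after seeing the data, it was 2 with different genes, Ing1 and Cd99. Same-numbered DEHP 200 libraries of the 2 times had correlations of deviations of -0.18, -0.51 and -0.40, and differently numbered ones from -0.15 to 0.45. With 3 libraries a group these values cannot show whether the numbers mark pairs. With the replicate number as a block the count was 1 (Ltbp2), and 1 gene (Foxa3) passed against the other 4 treatments. That contrast had 1 gene (Foxa3) also without the trend in the prior, and ran from 0 to 1 when 1 library was left out; the contrast with vehicle ran from 0 to 1 (Obox2, without 0-month vehicle replicate 3). The cause was not tested.

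The 1726 genes at an unadjusted p under 0.05 became 873 from the 6 libraries alone, 851 without 0-month replicate 3, 1089 without 3-month replicate 1, 1141 without 3-month replicate 3 and 379 without both 0-month replicates 2 and 3. It became 2413 without 0-month replicate 1, 2365 without 0-month replicate 2, 2048 without 3-month replicate 2 and 2544 with library weights. Of 856 alternative values of 54 named genes, 829 kept direction and call, 13 lost the call and 14 changed sign. Only Ltbp2 and Casq2 had a call to lose, so all 13 losses were theirs. Ltbp2 passed in 10 of 16 alternatives and Casq2 in 9 of 16. The other named genes had not passed, so the count of 829 does not measure how stable the calls were. Amh became -0.087 (quantile normalization), -0.065 (library weights), -0.021, -0.16, -0.12 and -0.0094 (without 0-month replicate 1, 0-month replicate 2, 3-month replicate 1 and 3-month replicate 2). Bmp15 became 0.145 (0-month replicate 1), 0.35 (0-month replicate 3), 0.016 (3-month replicate 1) and 0.1454 (3-month replicate 3). Without 0-month replicate 3 Cyp11a1 became -0.12, Lhcgr -0.53 and Esr2 0.0090, and Lhcgr became -0.18 without 3-month replicate 1. Leaving out 1 library at a time, Cyp11a1 reached 2.33, Lhcgr 0.92, Esr2 -0.92, Amh 0.22 and Bmp15 -0.54 at the other end. Of 718 alternative list medians 699 moved by less than the spread between libraries. Depth is known only approximately, so no limit for a low gene is given.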

Other observations

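Complement genes had differences of both signs with DEHP 200. Of 20 genes tested, 14 had positive differences over time (median 0.16, vehicle 0.22) and none passed in limma. Without overlap 2 were higher and 2 lower, where 6.37% and 6.23% of all genes were. C2, a protease of the classical and lectin pathways, was 5.89, 5.98 and 5.35 log2 CPM at 0 months and 7.52, 6.46 and 6.93 at 3 months (1.23 ± 0.34, vehicle 0.90). C1s1, a protease of the C1 complex, was 6.69, 6.78 and 6.52 at 0 months and 7.01, 7.19 and 6.96 at 3 months. C7, of the membrane attack complex, was 4.84, 3.82 and 5.14 at 0 months and 2.29, 3.73 and 2.84 at 3 months (-1.65 ± 0.55, vehicle -0.67). These 3 genes had no overlap between times.

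In the angiogenesis list 4 of 21 genes were higher and 2 lower at 3 months without overlap, and in the glutathione list 2 of 31 were higher and 3 lower, against 6.37% and 6.23% of all genes. Nrp1 and Nrp2, coreceptors of VEGF, were higher at 3 months without overlap, by 0.49 ± 0.14 and 0.66 ± 0.23 (vehicle 0.15 and 0.26). Vegfd and Pgf, growth factors of the same family, were lower, by -0.50 and -0.67 (vehicle -0.32 and -0.55). With DEHP 20, DiNP 20 and DiNP 100 the differences of Pgf were positive, at 0.61, 0.40 and 0.40, and those of Vegfd were -0.74, 0.07 and -0.31. Of 19 clock genes 15 had positive differences, and 4 were higher without overlap, against 6.37% of all genes: Arntl, which encodes the core activator BMAL1, was 3.81, 3.87 and 3.29 at 0 months and 4.36, 4.05 and 4.27 at 3 months. In the glutathione list, Gstp1, a conjugating enzyme, was 7.15, 7.22 and 6.65 at 0 months and 7.92, 7.68 and 7.48 at 3 months (0.69 ± 0.25, vehicle -0.07), and Gclc, which starts glutathione synthesis, differed by 0.56 (vehicle 0.04). The peroxidase genes Gpx7 and Gpx8 and the peroxiredoxin gene Prdx4 were lower without overlap, with differences of -0.49, -0.36 and -0.32. None of these genes passed.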
